A study of Mus musculus with 15 samples.

Results

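Genes of the unfolded protein response (UPR) and of protein entry, folding and disposal in the endoplasmic reticulum (ER) were followed in mouse AM-14 B cells. The set holds 41 genes chosen by name, and every probe set annotated to them was taken. Of these, 40 had a probe set of their own and all 40 were tested, among 13160 tested genes and 18193 with a probe set of their own. Sec61g was measured only by a probe set shared with other gene symbols and was not analysed here. The 40 genes were covered by 99 of 45037 probe sets, and 94 of the 99 passed the filter on low signals. By role, 6 belong to the ATF4 branch, 2 are stress sensors, 17 fold proteins, 6 serve ER-associated degradation (ERAD) and 9 serve translocation.

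AM-14 B cells carry a transgenic antigen receptor that binds IgG, and RNA was measured on 15 Affymetrix arrays, with 3 arrays in each of 5 groups. In the anti-IgM+CpG group the titles name both the receptor ligand and the Toll-like receptor 9 ligand, while the treatment field reads none. The PL2-3 group received a chromatin immune complex, which can engage the antigen receptor and Toll-like receptor 9 together. The CpG group received the phosphorothioate oligonucleotide 1826, the anti-IgM group received F(ab')2 goat antibody to mouse IgM, and the media group received no agent. All groups share the AM-14 receptor. The mice's strain and age, the doses, the times and the origin of the replicates are not given in the sources used here, so p-values measure the spread between arrays, which may be technical.

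The UPR starts when unfolded proteins gather in the ER. Of its sensors, IRE1 (gene Ern1) splices the Xbp1 message and ATF6 is cut to release a transcription factor, while PERK phosphorylates the translation factor eIF2 and so favours translation of ATF4. ATF4 turns on amino acid supply genes such as Asns, and other stresses can activate it without the ER. ATF6 and spliced XBP1 turn on chaperones, ERAD and translocation genes, and B cells enlarge this machinery when they become antibody-secreting plasma cells.

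The ER stress response element (ERSE) is the promoter element that ATF6 and XBP1 are known to bind near chaperone genes. It was searched on both strands as CCAAT, then 9 bases of any kind, then CCACG, in the 300 bases from 250 before to 50 after the gene start in RefSeq (GRCm38.p6). A window was at hand for 34 of the 40 genes, and ERSE was found in 9 of them (26.5%), against 37 of 27018 genes (0.137%). It lay in 8 of 15 folding genes (53.3%), in 1 of 5 ERAD genes (Syvn1), and in 0 of 6 ATF4 branch and 0 of 7 translocation genes. The related ERSE-II (ATTGG, 1 base of any kind, CCACG) was found in 2 of 34 genes, Herpud1 and Dnajb11, against 0.0444% of all genes. The XBP1-associated element, TGACG followed directly by TGG, and the ATF4-associated element TGATG, 1 base, AAT were each found in 0 of 34 genes, against 0.714% and 1.08% of all genes. A match describes these letters in this window only. Because the genes were chosen by name and ERSE is known from chaperone genes, its share here is a description and no test.

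The following stretches carry the element in capitals, read 5′ to 3′ on the gene's strand, and were chosen because the genes behind them moved in different directions. In Calr, Creld2 and Ero1b the element reads in the opposite orientation, as its reverse complement.
Hspa5, chr2:34772010-34772058, plus strand: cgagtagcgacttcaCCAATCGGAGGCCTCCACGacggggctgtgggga
Pdia6, chr12:17266476-17266524, plus strand: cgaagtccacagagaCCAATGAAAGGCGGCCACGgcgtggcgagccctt
Calr, chr8:84847060-84847108, minus strand: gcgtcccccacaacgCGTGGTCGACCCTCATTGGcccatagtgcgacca
Creld2, chr15:88819505-88819553, plus strand: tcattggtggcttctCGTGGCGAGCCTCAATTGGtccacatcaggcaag
Syvn1, chr19:6046517-6046565, plus strand: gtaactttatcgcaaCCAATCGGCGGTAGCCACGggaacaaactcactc
Ero1b, chr13:12565667-12565715, plus strand: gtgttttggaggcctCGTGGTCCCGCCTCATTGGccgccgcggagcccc

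Several arrays stood apart from the rest. Media 3 and anti-IgM+CpG 1 had the highest signals for many ER genes: 8 of 40 members on media 3 and 7 on anti-IgM+CpG 1 were over 1 log2 unit above the mean of the other arrays of their group, against 6.95% and 7.63% of all tested genes on those arrays. On each of the other 13 arrays 0 or 1 member was. The same arrays had the highest summed signals of 8 plasma cell markers, 199727 on anti-IgM+CpG 1 and 209225 on media 3, against 59405 to 103970 on the other 13. They also had the highest summed myeloid markers (145537 and 237179, against 13156 to 114907) and erythroid markers (53645 and 68048, against 14712 to 39999). These linear sums rest on a few bright genes. The 2 arrays were the highest for Jchain, Sdc1, Xbp1, Tnfrsf17 and Mzb1, but not together for Prdm1, Ell2 and Irf4. Irf4 was lowest of all on media 3 (4397). Of the myeloid markers the 2 arrays were the highest for S100a8 and S100a9 only, and of the erythroid markers for Alas2 only. The part of these markers in the results was not tested. Values without the 2 arrays are given beside the counts and beside the calls that ended without them. In such bulk samples, fewer cells of a type and less RNA per cell cannot be told apart.

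The 3 anti-IgM+CpG arrays differed from all others in further ways. Xist, the transcript of the inactive X chromosome, had signals of 321 to 589 there and of 4252 to 15543 on the other arrays. The labels give the Enzo labelling kit for replicates 1 and 2 and the Ambion kit for replicate 3, yet the 5′ to 3′ signal ratio of beta-actin was 0.105 to 0.193 on all 3 anti-IgM+CpG arrays. The ratio was 0.335 to 0.747 on the other Enzo arrays and 0.108 to 0.201 on the other Ambion arrays. These differences and the anti-IgM+CpG treatment cannot be told apart. Labelling read from actin was tried as an alternative, given beside each anti-IgM+CpG count of members and each call it ended. The defining B cell markers Cd79a, Cd79b, Ms4a1 and Cd22 were present on all 15 arrays. Of 5 B cell markers, 5 fell with anti-IgM+CpG, 4 with PL2-3, 3 with CpG and 5 with anti-IgM, and the part of these falls in the results was not tested. Some markers of other cell types fell too: of 7 T cell markers 5, 3, 4 and 4 fell in these groups, and of 8 myeloid markers 6, 2, 3 and 3. Of 4 natural killer cell markers 1, 1, 1 and 0 fell, and of 2 erythroid markers 1, 2, 1 and 0. Of all tested genes 24.8%, 13.5%, 16.9% and 9.32% fell. The summed T cell markers were 2002 to 4062 with anti-IgM+CpG, 2763 to 3755 with PL2-3, 2644 to 3640 with CpG, 3161 to 4784 with anti-IgM and 8660 to 11938 in media. The summed B cell markers were 31029 to 52318 with anti-IgM+CpG, 32314 to 69590 with PL2-3, 85940 to 91847 with CpG, 50182 to 73744 with anti-IgM and 174961 to 240613 in media.

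Against media, each stimulus raised some ER genes and lowered others. A gene is called changed at a limma adjusted p under 0.05 over all tested genes, and changes are log2 differences ± SE with 3 arrays in each group. With anti-IgM+CpG 18 of 40 members rose and 5 fell, where 17.2% of all tested genes rose and 24.8% fell. With PL2-3 11 rose and 3 fell (12.4% and 13.5% of all genes), with CpG 6 rose and 5 fell (13.1% and 16.9%), and with anti-IgM 10 rose and 3 fell (10.1% and 9.32%). The members' median change was 0.45, 0.32, 0.01 and 0.24 in that order, while the median of all genes was -0.29, -0.10, -0.21 and -0.13. Atf4, Ero1a and Ssr1 rose in all 4 comparisons, Ern1, Ero1b and Syvn1 fell in all 4, and 15 members were called in none. The 4 comparisons share the media arrays, so their calls are not independent. How many of all tested genes were called in all 4 or in none was not counted.

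These splits depend on how arrays are scaled. With every array moved to a common median, the median change of all genes became 0.30 with anti-IgM+CpG, 0.09 with PL2-3, 0.15 with CpG and 0.12 with anti-IgM. The members' counts then became 27 higher and 1 lower, 10 and 1, 11 and 3, and 12 and 0. Among all called genes the share that rose was 79.2%, 64.7%, 74.6% and 77.1% with that alignment, and 40.9%, 47.8%, 43.7% and 52.1% as deposited. No called member changed sign. Without media 3 and anti-IgM+CpG 1, 16 members rose and 5 fell with anti-IgM+CpG, 13 and 2 with PL2-3, 10 and 4 with CpG, and 16 and 3 with anti-IgM. With actin-based labelling, 13 members rose and 3 fell with anti-IgM+CpG, 12 and 3 with PL2-3, 8 and 5 with CpG, and 13 and 3 with anti-IgM. Of the 23 anti-IgM+CpG calls, 15 held with that labelling, 8 ended, and Hyou1 was added.

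**Figure D1:**
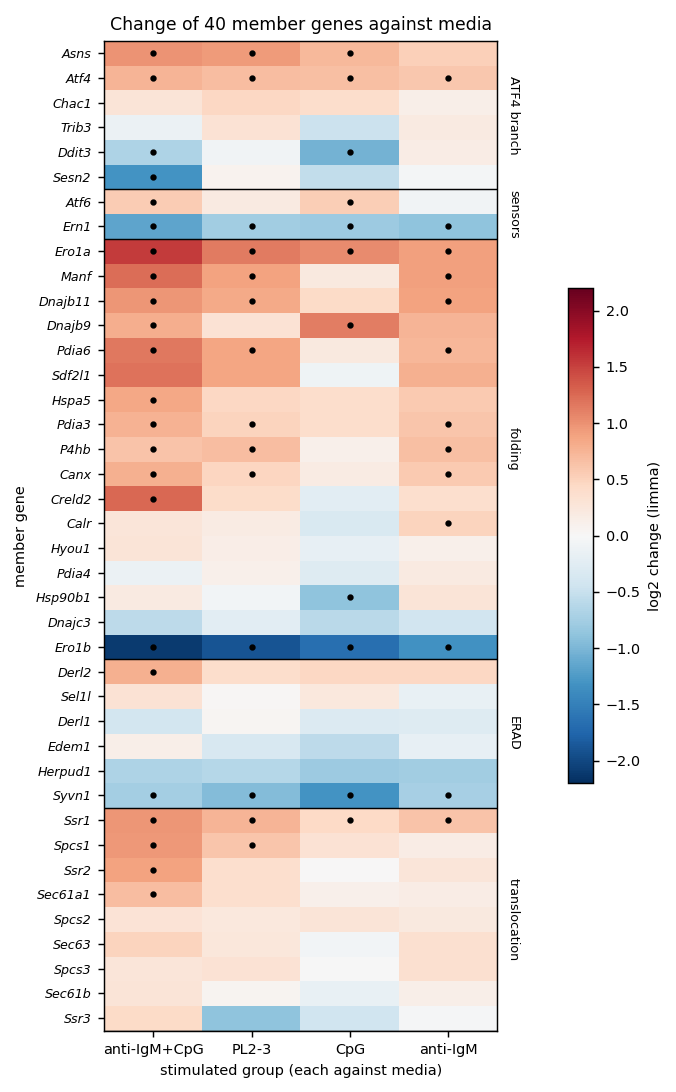
Log2 change of the 40 tested member genes (rows, by role) in each stimulated group against media (columns), with red for higher and blue for lower. A black dot marks a limma adjusted p under 0.05. Ero1a and Ssr1 are red and dotted in all 4 columns, Ero1b and Syvn1 blue and dotted in all 4, and the CpG column has few dotted folding genes.

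The ATF4 branch did not move as one. Atf4, the transcription factor itself, rose with every stimulus, and so did its amino acid target Asns with 3 of the 4, while Ddit3 fell with CpG. Atf4 signals were 42851, 42192 and 48022 with anti-IgM+CpG, 39632, 43244 and 44320 with PL2-3, 43335, 42751 and 40521 with CpG, 35662, 45143 and 39374 with anti-IgM, and 27370, 24611 and 27579 in media. All 12 stimulated arrays lay above all 3 media arrays, and the stimulated groups overlapped each other. The rise was 0.74 ± 0.13 with anti-IgM+CpG (limma adjusted p = 0.000283), 0.68 ± 0.13 with PL2-3 (0.00112), 0.67 ± 0.13 with CpG (0.000972) and 0.59 ± 0.13 with anti-IgM (0.00427). A second Atf4 probe set changed by 0.28, 0.09, -0.26 and 0.20. With the mean of all Atf4 probe sets none of the 4 calls held (limma adjusted p from 0.425 to 0.792). That mean gives equal weight to a dim probe set that failed the filter (mean signal 100.8). A mean of only the 2 probe sets that passed was not tried.

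Asns, which makes asparagine, had signals of 24385, 15995 and 18857 with anti-IgM+CpG, 17950, 18752 and 19724 with PL2-3, 14140, 14951 and 19190 with CpG, 15006, 14691 and 12426 with anti-IgM, and 8404, 8592 and 12845 in media. Media 3 was the highest media array and overlapped only the anti-IgM group. Asns rose by 0.99 ± 0.18 with anti-IgM+CpG (limma adjusted p = 0.000469), 0.94 ± 0.18 with PL2-3 (0.0013) and 0.71 ± 0.18 with CpG (0.00823). The CpG call ended without CpG 3 (0.0548) and with the mean of both probe sets (0.38, 0.221), and the second probe set changed by 0.06. With anti-IgM it changed by 0.52 ± 0.18 (0.06), and by 0.68 without media 3 and anti-IgM+CpG 1 (0.00705).

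Ddit3, which encodes the stress factor CHOP, went the other way with CpG. Its signals were 4429, 2222 and 2909 with anti-IgM+CpG, 4603, 6249 and 3630 with PL2-3, 2638, 2330 and 2212 with CpG, 7561, 6196 and 3690 with anti-IgM, and 4574, 5293 and 5032 in media. All CpG arrays lay below all PL2-3, anti-IgM and media arrays. Ddit3 fell by 1.03 ± 0.24 with CpG (limma adjusted p = 0.00436), a call kept under all 15 single-array removals and all 12 other alternatives. With anti-IgM+CpG it fell by 0.68 ± 0.24 (0.0338), a call that ended with actin-based labelling (-0.42, 0.244), with array medians aligned (-0.09, 0.809), and without media 2 (0.0698), media 3 (0.151) or anti-IgM+CpG 2 (0.205). With PL2-3 and anti-IgM it changed by -0.07 ± 0.24 (0.875) and 0.17 ± 0.24 (0.692).

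Sesn2, a sestrin that restrains mTORC1, fell by 1.32 ± 0.38 with anti-IgM+CpG (limma adjusted p = 0.0106), at signals of 1028, 476 and 710 against 1911, 2020 and 1704 in media. The groups did not overlap, but the change was -0.47 with actin-based labelling (0.348), and the call also ended without media 3 (0.0776) or anti-IgM+CpG 2 (0.0708). Trib3, a pseudokinase that feeds back on ATF4, changed by -0.47 to 0.31 against media and Chac1, a glutathione-degrading enzyme, by 0.13 to 0.45, and neither was called. Without media 3 and anti-IgM+CpG 1, Chac1 rose with PL2-3 (0.97, limma adjusted p = 0.031) and CpG (0.90, 0.0405).

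**Figure D2:**
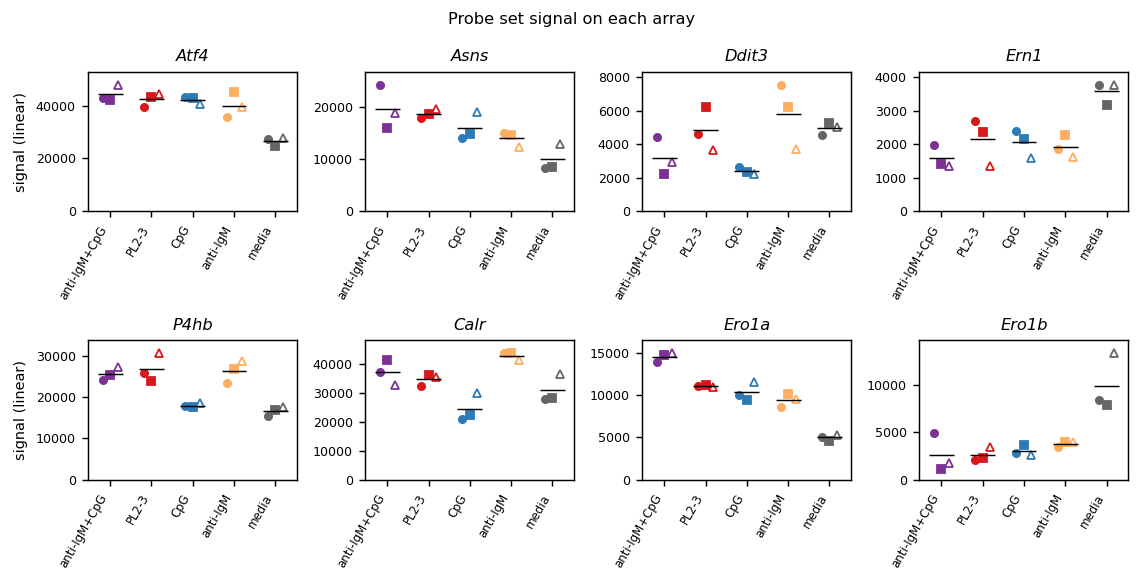
Probe set signal (vertical axes, linear, from 0) on each of 15 arrays for 8 members, with groups from anti-IgM+CpG at the left to media at the right. Circles, squares and triangles are replicates 1, 2 and 3, filled for the Enzo kit and open for the Ambion kit, and the line is the mean of 3 arrays. Atf4 and Ero1a lie above media in all stimulated arrays, and Ero1b lies below media in all of them. Among the stimulated groups, Ddit3, P4hb and Calr have their lowest mean with CpG, where P4hb lies close to media.

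Of the sensors, each read on its brightest probe set, Ern1 fell and Atf6 rose with CpG and with anti-IgM+CpG. Ern1 signals were 1989, 1418 and 1349 with anti-IgM+CpG, 2705, 2367 and 1350 with PL2-3, 2401, 2156 and 1597 with CpG, 1842, 2263 and 1606 with anti-IgM, and 3766, 3185 and 3782 in media. Every stimulated array lay below every media array. The change was -1.15 ± 0.21 with anti-IgM+CpG (limma adjusted p = 0.000413), -0.77 ± 0.21 with PL2-3 (0.0122), -0.80 ± 0.21 with CpG (0.00912) and -0.89 ± 0.21 with anti-IgM (0.00684). Over 4 Ern1 probe sets the change ran from -1.15 to 1.21 with anti-IgM+CpG and from -0.80 to 0.86 with CpG, so no direction is settled for the gene. Without media 3 the calls ended with PL2-3 (0.0872), CpG (0.0683) and anti-IgM (0.0529). Without PL2-3 replicate 3 the PL2-3 call ended (0.0916). With array medians aligned, Ern1 was called lower in none of the 4 comparisons.

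Atf6 had signals of 2782, 3168 and 2980 with anti-IgM+CpG, 2238, 1737 and 3187 with PL2-3, 2755, 3166 and 2957 with CpG, 1788, 1751 and 2205 with anti-IgM, and 1902, 2024 and 2099 in media. The anti-IgM+CpG and CpG arrays all lay above the media arrays, and the PL2-3 and anti-IgM arrays overlapped them. Atf6 rose by 0.55 ± 0.18 with anti-IgM+CpG (limma adjusted p = 0.0238, and 0.155 with actin-based labelling) and by 0.54 ± 0.18 with CpG (0.0341). Over 3 Atf6 probe sets the change ran from -0.14 to 0.55 with anti-IgM+CpG and from 0.06 to 0.54 with CpG. The CpG call ended in 5 of 15 single-array removals (adjusted p from 0.0535 to 0.128), among them media 3 (0.109). The anti-IgM+CpG call ended without media 1 (0.0538), media 3 (0.0792) or anti-IgM+CpG 2 (0.0944).

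Among the 17 folding genes, 10 rose and 1 fell with anti-IgM+CpG (17.2% and 24.8% of all tested genes). With PL2-3 7 rose and 1 fell (12.4% and 13.5%). With CpG 2 rose and 2 fell (13.1% and 16.9%), and with anti-IgM 8 rose and 1 fell (10.1% and 9.32%). The CpG counts were near those shares. Median changes of the 17 genes were 0.78, 0.45, 0.12 and 0.58. With the 2 arrays that stood apart left out, the counts were 10 and 1, 8 and 1, 5 and 1, and 13 and 1. With actin-based labelling, 9 folding genes rose and 1 fell with anti-IgM+CpG, and the median change was 0.51.

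Both oxidases of the disulfide relay were called in all 4 comparisons, in opposite directions. Ero1a (listed as Ero1l) had signals of 14001, 14765 and 15008 with anti-IgM+CpG, 11057, 11192 and 10980 with PL2-3, 10036, 9438 and 11608 with CpG, 8584, 10178 and 9599 with anti-IgM, and 5089, 4594 and 5336 in media. The anti-IgM+CpG arrays were the highest, and no stimulated group overlapped media. The rise was 1.53 ± 0.13 with anti-IgM+CpG (limma adjusted p = 5.05e-07), 1.14 ± 0.13 with PL2-3 (1.87e-05), 1.04 ± 0.13 with CpG (2.56e-05) and 0.91 ± 0.13 with anti-IgM (0.000194), and all 4 calls held under every alternative run. Over 3 probe sets the rise ran from 0.40 to 1.53 with anti-IgM+CpG and from 0.59 to 0.91 with anti-IgM.

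Ero1b (listed as Ero1lb), its paralog, had signals of 4908, 1166 and 1789 with anti-IgM+CpG, 2042, 2275 and 3465 with PL2-3, 2825, 3628 and 2564 with CpG, 3384, 3997 and 3948 with anti-IgM, and 8392, 7908 and 13340 in media. Media 3 and anti-IgM+CpG 1 were the highest arrays of their groups, and every stimulated array lay below every media array. The change was -2.10 ± 0.37 with anti-IgM+CpG (limma adjusted p = 0.000312), -1.90 ± 0.37 with PL2-3 (0.00132), -1.67 ± 0.37 with CpG (0.00288) and -1.33 ± 0.37 with anti-IgM (0.0182). The anti-IgM call ended without media 3 (0.105), anti-IgM 1 (0.0647) or anti-IgM 3 (0.0655), and also with array medians aligned. A second probe set also lay lower in all 4 comparisons, at -1.72, -0.74, -1.32 and -0.71.

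P4hb, Pdia6, Pdia3 and Canx rose with anti-IgM+CpG, PL2-3 and anti-IgM and were not called with CpG. P4hb, a protein disulfide isomerase, had signals of 24129, 25264 and 27190 with anti-IgM+CpG, 25742, 23786 and 30636 with PL2-3, 17711, 17451 and 18549 with CpG, 23347, 26747 and 28714 with anti-IgM, and 15314, 16776 and 17516 in media. The CpG arrays lay close to media and below every array of the other 3 stimulated groups. P4hb rose by 0.62 ± 0.12 with anti-IgM+CpG (limma adjusted p = 0.000667), 0.68 ± 0.12 with PL2-3 (0.000609) and 0.66 ± 0.12 with anti-IgM (0.0012), and changed by 0.12 ± 0.12 with CpG (0.502). Pdia6, another isomerase, rose by 1.16 ± 0.21, 0.86 ± 0.21 and 0.73 ± 0.21 in these 3 groups (0.000342, 0.00536 and 0.0195), against 0.21 ± 0.21 with CpG (0.475). A second Pdia6 probe set changed by -0.82 with anti-IgM+CpG, and the anti-IgM call ended without media 1 (0.0888), anti-IgM 1 (0.0856) or anti-IgM 3 (0.111).

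Pdia3, which works with the lectin chaperones, rose by 0.77 ± 0.17 with anti-IgM+CpG (limma adjusted p = 0.00235), 0.49 ± 0.17 with PL2-3 (0.0489, and 0.0509 with the replicate number as a block) and 0.60 ± 0.17 with anti-IgM (0.0223). The PL2-3 call ended in 10 of 15 single-array removals (adjusted p from 0.0517 to 0.168) and the anti-IgM call in 4 (0.0745 to 0.0952). Canx, the membrane lectin chaperone calnexin, rose by 0.78 ± 0.15, 0.48 ± 0.15 and 0.57 ± 0.15 in the same 3 groups (0.000787, 0.03 and 0.0149), and its PL2-3 call ended in 5 removals (0.0631 to 0.107), among them media 3 (0.0728), and its anti-IgM call in 2 (0.0628 and 0.0825). Calr, its soluble relative calreticulin, rose with anti-IgM by 0.49 ± 0.15 (0.0369), a call that ended in 6 removals (0.0506 to 0.119), and was called in none of the other 3 comparisons against media. Calr signals were 37378, 41558 and 32870 with anti-IgM+CpG, 32331, 36226 and 35713 with PL2-3, 21066, 22365 and 30100 with CpG, 43766, 43877 and 41348 with anti-IgM, and 27852, 28441 and 36461 in media. The anti-IgM arrays were above all media arrays, and the CpG, PL2-3 and anti-IgM+CpG arrays overlapped media.

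Hspa5, the chaperone BiP that holds the sensors inactive, had signals of 146122, 68954 and 78216 with anti-IgM+CpG, 72177, 59891 and 78612 with PL2-3, 67565, 68026 and 65830 with CpG, 93469, 55655 and 85221 with anti-IgM, and 49189, 46639 and 58092 in media. Anti-IgM+CpG 1 was far above all others, and 1 anti-IgM array fell within the media range. Hspa5 rose by 0.85 ± 0.24 with anti-IgM+CpG (limma adjusted p = 0.0103), a call that ended without media 3 and anti-IgM+CpG 1 (0.54, 0.0607), and over 3 probe sets the change ran from -0.13 to 1.41. With PL2-3, CpG and anti-IgM it changed by 0.45 ± 0.24 (0.199), 0.39 ± 0.24 (0.242) and 0.58 ± 0.24 (0.112). Without those 2 arrays the anti-IgM change was 0.62 and was called (0.0328).

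Hsp90b1, the ER member of the HSP90 family, had signals of 42391, 31517 and 20433 with anti-IgM+CpG, 23473, 29085 and 23282 with PL2-3, 11782, 14050 and 17134 with CpG, 37091, 32056 and 27238 with anti-IgM, and 21088, 18369 and 46030 in media. Media 3 was the highest of all 15 arrays, and all CpG arrays lay below all other arrays. Hsp90b1 fell by 0.88 ± 0.30 with CpG (limma adjusted p = 0.0366), a call that ended without media 3 (-0.40, 0.278), CpG 1 (0.134) or CpG 2 (0.0778). Without media 3 and anti-IgM+CpG 1 it rose by 0.74 with anti-IgM (0.0208).

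The J-domain cochaperones differed. Dnajb9, which is known to act on BiP and to restrain IRE1, rose by 1.12 ± 0.26 with CpG (limma adjusted p = 0.00366), a call kept under every alternative run, and by 0.80 ± 0.26 with anti-IgM+CpG (0.0197), a call that ended with actin-based labelling (0.0592) and without media 2 (0.104) or anti-IgM+CpG 2 (0.089). Its signals were 12868, 12993 and 21984 with CpG, against 6959, 5239 and 9682 in media, with no overlap. Dnajb11, a cochaperone that binds unfolded clients, rose by 0.97 ± 0.21 with anti-IgM+CpG (0.00139), 0.84 ± 0.21 with PL2-3 (0.00633) and 0.88 ± 0.21 with anti-IgM (0.00637, and 0.0546 without anti-IgM 3). With CpG its change was 0.43 ± 0.21 (0.131). Dnajc3, which inhibits eIF2 kinases, was called in none of the 4, at changes of -0.58, -0.22, -0.60 and -0.41.

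Sdf2l1, Creld2 and Manf, small ER proteins known to be induced strongly by ER stress, had their highest media signal on media 3 and their highest anti-IgM+CpG signal on anti-IgM+CpG 1. Sdf2l1 had signals of 14208, 5858 and 5257 with anti-IgM+CpG, 5332, 5491 and 7381 with PL2-3, 2377, 2934 and 4102 with CpG, 4251, 5280 and 8078 with anti-IgM, and 1850, 1592 and 11464 in media. Anti-IgM+CpG 1 and media 3 were the highest of all 15 arrays, and media 1 and media 2 were the lowest. Sdf2l1 was called in no comparison with all arrays, at 1.20 ± 0.48 with anti-IgM+CpG (limma adjusted p = 0.0539), 0.87 ± 0.48 with PL2-3 (0.209), -0.09 ± 0.48 with CpG (0.911) and 0.78 ± 0.48 with anti-IgM (0.287). Without these 2 arrays it rose by 1.42 (0.000263), 1.61 (6.84e-05), 0.66 (0.0289) and 1.53 (0.000178).

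Creld2 had signals of 22247, 7440 and 8457 with anti-IgM+CpG and of 2798, 2372 and 14475 in media, where media 3 overlapped the stimulated arrays. It rose by 1.27 ± 0.47 with anti-IgM+CpG (limma adjusted p = 0.0388), and the change was 0.42 with actin-based labelling (0.502) and 0.59 without anti-IgM+CpG 1 (0.222). Without both media 3 and anti-IgM+CpG 1 it was 1.22 and was called (0.00288). The call ended without media 1 (0.129), media 2 (0.164) or anti-IgM+CpG 2 (0.0536) too. Manf rose by 1.23 ± 0.25 with anti-IgM+CpG (0.00109), 0.88 ± 0.25 with PL2-3 (0.0175) and 0.91 ± 0.25 with anti-IgM (0.0191). Its signals were 25252, 18849 and 17475 with anti-IgM+CpG, 14840, 14263 and 18651 with PL2-3, 15944, 14058 and 18730 with anti-IgM, and 6568, 5653 and 16903 in media. Media 3 lay among the PL2-3 and anti-IgM arrays and below all anti-IgM+CpG arrays. The PL2-3 call ended without media 1 (0.0728), media 2 (0.0958) or PL2-3 replicate 1 (0.0596), and the anti-IgM call without media 1 (0.0774), media 2 (0.1) or anti-IgM 1 (0.0774). Hyou1, a nucleotide exchange factor for BiP, and Pdia4, an isomerase, were called in none of the 4 comparisons on their brightest probe sets. Over 3 Hyou1 probe sets the change ran from -0.76 to 0.52 with anti-IgM+CpG and from 0.14 to 1.38 with PL2-3. It ran from -0.18 to 0.88 with CpG and from 0.10 to 1.20 with anti-IgM. On a second Hyou1 probe set every stimulated array lay above every media array, so no level is settled for the gene.

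**Figure D3:**
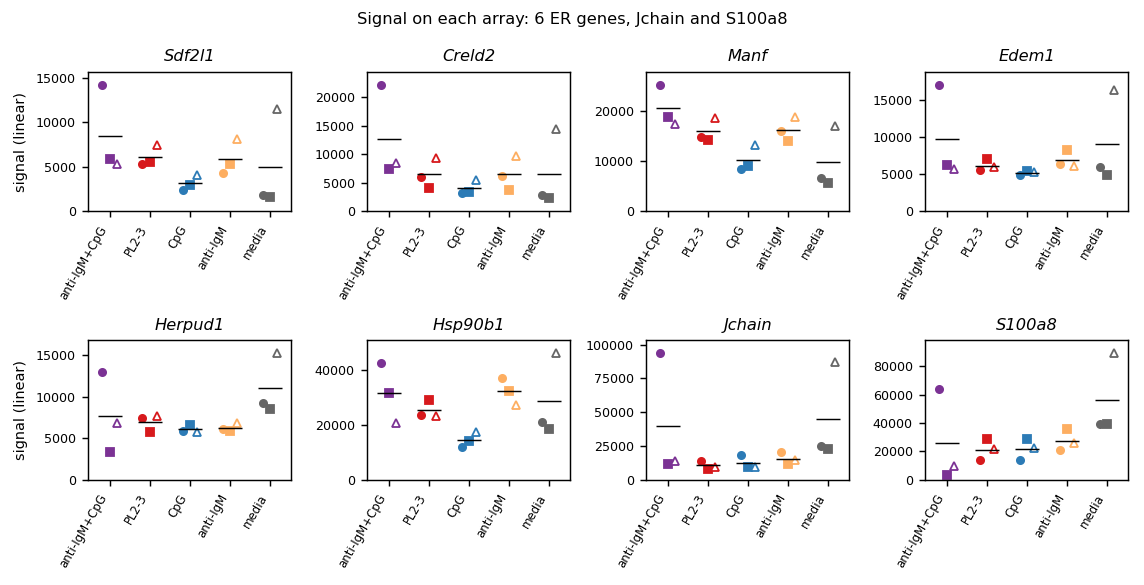
Probe set signal (vertical axes, linear, from 0) on each of 15 arrays for 6 ER genes, for Jchain, a plasma cell marker, and for S100a8, a myeloid marker. Groups run from anti-IgM+CpG at the left to media at the right, with symbols for replicates 1, 2 and 3 as circle, square and triangle, filled for the Enzo kit and open for the Ambion kit, and lines at the mean of 3 arrays. Anti-IgM+CpG 1 and media 3 are the highest arrays of their groups in every panel, with Jchain at 93702 and 86843 there.

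Of the 6 ERAD genes, Syvn1 fell with every stimulus and Derl2 rose with anti-IgM+CpG. Syvn1 encodes HRD1, the ubiquitin ligase at the centre of ERAD. Its signals were 17616, 8808 and 9810 with anti-IgM+CpG, 9661, 8284 and 12196 with PL2-3, 7252, 8070 and 7869 with CpG, 11816, 9200 and 14630 with anti-IgM, and 14764, 18277 and 26738 in media. The CpG, PL2-3 and anti-IgM arrays all lay below media, while anti-IgM+CpG 1 lay among the media arrays. The Syvn1 change was -0.74 ± 0.24 with anti-IgM+CpG (limma adjusted p = 0.022), -0.96 ± 0.24 with PL2-3 (0.00809), -1.31 ± 0.24 with CpG (0.000717) and -0.72 ± 0.24 with anti-IgM (0.0471). The CpG call held under every alternative run. Without media 3 the other 3 calls ended (0.122, 0.056 and 0.224). The anti-IgM call ended in 11 of 15 single-array removals (adjusted p from 0.0549 to 0.224) and the anti-IgM+CpG call in 4 (0.0535 to 0.126). With array medians aligned the anti-IgM+CpG change was -0.15 (0.725), and the PL2-3 and anti-IgM calls ended too.

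Derl2, which helps to move proteins out of the ER, rose by 0.78 ± 0.18 with anti-IgM+CpG (limma adjusted p = 0.00261), and by 0.31 with actin-based labelling, which was not called (0.16). Herpud1, which brings HRD1 to its partners, was called in none of the 4 comparisons, at -0.67, -0.62, -0.81 and -0.76. Its signals were 12995, 3314 and 6777 with anti-IgM+CpG, against 9253, 8519 and 15235 in media. Without anti-IgM+CpG 1 Herpud1 fell in all 4 comparisons (-1.22, -0.62, -0.81 and -0.76, with limma adjusted p of 0.000421, 0.0262, 0.00503 and 0.0107). Without media 3 it was called in none (-0.44, -0.39, -0.58 and -0.53, with adjusted p from 0.304 to 0.532). Without both arrays it fell with anti-IgM+CpG (-1.04, 0.00357) and CpG (-0.64, 0.0364) and was not called with PL2-3 (-0.46, 0.141) or anti-IgM (-0.60, 0.0692). Edem1, which hands misfolded glycoproteins to ERAD, had signals of 17032 on anti-IgM+CpG 1 and 16342 on media 3, against 4808 to 8284 on the other 13 arrays, and was not called, like Sel1l, the partner of HRD1, and Derl1, a relative of Derl2.

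Of the 9 translocation genes, 4 rose with anti-IgM+CpG (17.2% of all tested genes), and all 9 had a positive change there. With actin-based labelling 2 of the 9 rose with anti-IgM+CpG, at a median of 0.24. With PL2-3 2 rose (12.4% of all tested genes), with CpG 1 (13.1%) and with anti-IgM 1 (10.1%), and none fell. The CpG and anti-IgM counts were near those shares. Median changes of the 9 genes were 0.48, 0.32, 0.02 and 0.22. Ssr1, a subunit of the translocon-associated protein complex, had signals of 20171, 19492 and 21187 with anti-IgM+CpG, 16811, 16478 and 18805 with PL2-3, 13135, 12615 and 16389 with CpG, 15672, 14652 and 17434 with anti-IgM, and 8418, 9726 and 13146 in media. The CpG group alone overlapped media, at media 3. Ssr1 rose by 0.98 ± 0.13 with anti-IgM+CpG (limma adjusted p = 2.58e-05), 0.75 ± 0.13 with PL2-3 (0.000516), 0.44 ± 0.13 with CpG (0.0175) and 0.63 ± 0.13 with anti-IgM (0.00301). The CpG call ended without media 1 (0.0901), CpG 1 (0.0556) or CpG 3 (0.0729), and over 4 probe sets the anti-IgM+CpG change ran from -0.26 to 0.98.

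Spcs1, a signal peptidase subunit, rose by 0.96 ± 0.16 with anti-IgM+CpG (limma adjusted p = 0.000197) and by 0.61 ± 0.16 with PL2-3 (0.00953, and 0.0553 without PL2-3 replicate 3). Ssr2, another translocon-associated subunit, rose with anti-IgM+CpG by 0.89 ± 0.18 (0.00114, and 0.123 with actin-based labelling). Sec61a1, the channel itself, rose with anti-IgM+CpG by 0.68 ± 0.18 (0.0063), a call that ended with actin-based labelling (0.0749) and without media 3 and anti-IgM+CpG 1 (0.49, 0.0642), while over 6 probe sets its change ran from -0.60 to 0.76. Sec61b, Sec63, Ssr3, Spcs2 and Spcs3 were called in none of the 4 comparisons. On the brightest probe sets their changes lay between -0.88, for Ssr3 with PL2-3, and 0.48, for Sec63 with anti-IgM+CpG. Over 5 Sec63 probe sets the change ran from -0.21 to 1.76 with CpG and from -0.71 to 1.55 with PL2-3. The upper values came from a dim probe set (mean signal 458.6). The Ssr3 value rests on PL2-3 replicate 1, at a signal of 3827 where the other PL2-3 arrays had 13704 and 21726, and a second Ssr3 probe set changed by 0.13.

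Set directly against anti-IgM, CpG gave lower Calr, P4hb, Hsp90b1 and Ddit3. Of 40 members, 4 were lower with CpG and 0 higher, where 3.84% of all tested genes were lower and 2.57% higher, and 3 of the 17 folding genes were lower, at a median difference of -0.45 beside -0.05 for all genes. Hspa5 differed by -0.18 (limma adjusted p = 0.792) and Dnajb9 by 0.37 (0.531), and neither was called. Calr differed by -0.83 ± 0.15 (limma adjusted p = 0.00287), P4hb by -0.55 ± 0.12 (0.0103), Hsp90b1 by -1.17 ± 0.30 (0.0272) and Ddit3 by -1.20 ± 0.24 (0.0054). For all 4 genes every CpG array lay below every anti-IgM array. Both Ddit3 probe sets gave like values (-1.33 and -1.20), as did 3 Calr probe sets (-0.86 to -0.81). At an unadjusted limma p under 0.05 the count was 11 lower and 1 higher. The share of all tested genes at that cutoff was not counted, so no excess can be read from it.

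The Ddit3 difference was called under every alternative run, and Calr under all but the alignment of array medians (-0.71, 0.0811). With that alignment 0 of the 17 folding genes were called. The P4hb call ended with it (-0.43, 0.309) and without anti-IgM 2 (0.0511), anti-IgM 3 (0.0542) or CpG 3 (0.0659). The Hsp90b1 call ended with it (-1.05, 0.0784) and without anti-IgM 1 (0.125), anti-IgM 2 (0.0888), CpG 1 (0.139) or CpG 2 (0.0751). With array medians aligned, 50.8% of all called genes were higher with CpG, against 40.1% as deposited. Without media 3 and anti-IgM+CpG 1, which change only the shared spread and the labelling term here, 7 members were lower and 1 higher: Sdf2l1 (-0.87, 0.00538), Manf (-0.69, 0.00477) and Syvn1 (-0.59, 0.0196) joined the lower genes, and Atf6 (0.61, 0.0474) was higher.

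PL2-3 was set against each single ligand in turn. Against anti-IgM, 0 of 40 members were called by limma, where 0.342% of all genes were higher and 0.35% lower with PL2-3, and 3 had an unadjusted p under 0.05 (2 higher, 1 lower). Differences ran from -0.86 to 0.44, and a call that is missed does not show equal levels. Against CpG, 2 members were higher with PL2-3 and 0 lower, where 1.6% of all genes were higher and 1.6% lower. At an unadjusted limma p under 0.05 there were 10 members (9 higher, 1 lower). For both ligands the share of all tested genes at the unadjusted cutoff was not counted. Ddit3 was higher by 0.96 ± 0.24 (limma adjusted p = 0.0403) and P4hb by 0.57 ± 0.12 (0.0142), and for both every PL2-3 array lay above every CpG array. Calr differed by 0.52 ± 0.15 (0.0899) and Hsp90b1 by 0.83 ± 0.30 (0.199).

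These calls were close to the threshold. Ddit3 lost its call in 9 of 15 single-array removals (adjusted p from 0.0501 to 0.2), and P4hb in 4 (0.0564 to 0.0932). With array medians aligned neither was called (0.103 and 0.444), and 27.6% of all called genes were higher with PL2-3, against 49.9% as deposited. Without media 3 and anti-IgM+CpG 1, 7 members were higher and 0 lower, with Hsp90b1 (0.83, 0.0112), Pdia6 (0.65, 0.0345), Calr (0.52, 0.0483), Sdf2l1 (0.95, 0.00448) and Manf (0.66, 0.0104) in addition. Whether PL2-3 differs more from CpG than from anti-IgM was not tested.

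**Figure D4:**
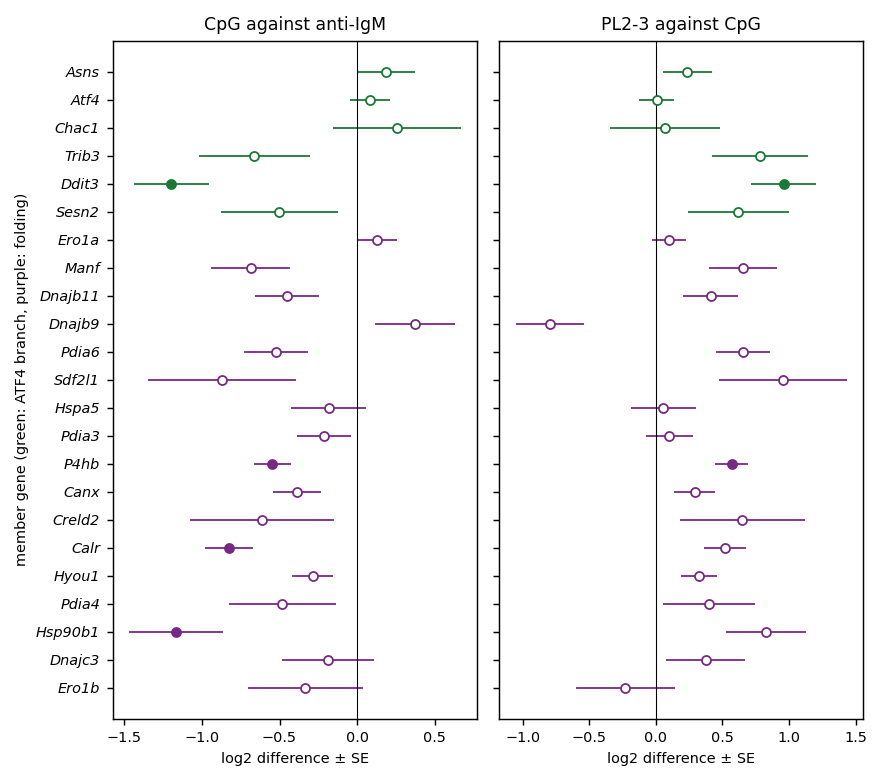
Log2 difference ± SE (horizontal axes) of the ATF4 branch genes (green) and folding genes (purple) between CpG and anti-IgM (left panel) and between PL2-3 and CpG (right panel), with 3 arrays in each group. Filled points have a limma adjusted p under 0.05. Ddit3, P4hb, Calr and Hsp90b1 are filled at the left and Ddit3 and P4hb at the right, while Atf4 lies near 0 in both panels.

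Few members differed between anti-IgM+CpG and anti-IgM alone, and the calls rest on how labelling is modelled. The array differences of the anti-IgM+CpG group cannot be told apart from its treatment here. Against anti-IgM alone, 4 of 40 members were higher with anti-IgM+CpG and 2 lower, where 3.72% of all genes were higher and 5.36% lower. The lower count was near that share. Ero1a was higher by 0.62 ± 0.13 (limma adjusted p = 0.00758), Spcs1 by 0.79 ± 0.16 (0.00715), Ssr2 by 0.63 ± 0.18 (0.043) and Atf6 by 0.62 ± 0.18 (0.0439). Ddit3 was lower by -0.85 ± 0.24 (0.0405) and Sesn2 by -1.28 ± 0.38 (0.0446). Over the probe sets of each gene, the lowest difference was -0.19 for Ero1a and -0.02 for Atf6. With actin-based labelling only Ero1a was called, and with array medians aligned 82.5% of all called genes were higher, against 41% as deposited. The calls of Ssr2, Atf6, Sesn2 and Ddit3 ended in 13, 11, 11 and 7 of 15 single-array removals.

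Against CpG alone, 9 members were higher with anti-IgM+CpG and 0 lower, where 1.91% of all genes were higher and 2.61% lower. These were 6 folding genes and 3 translocation genes. P4hb was higher by 0.51 ± 0.12 (limma adjusted p = 0.0227), Calr by 0.61 ± 0.15 (0.0305), Pdia6 by 0.94 ± 0.21 (0.0149) and Manf by 1.01 ± 0.25 (0.03). In single-array removals the Ero1a call ended in 7 of 15 and the P4hb call in 4. Canx (0.59 ± 0.15), Ero1a (0.50 ± 0.13), Ssr1 (0.54 ± 0.13), Ssr2 (0.88 ± 0.18) and Spcs1 (0.64 ± 0.16) were the others. Other probe sets of some of these genes went the other way, down to -0.90 for Pdia6, -0.42 for Ssr1, -0.26 for Ero1a and -0.03 for Canx. For Calr and P4hb every anti-IgM+CpG array lay above every CpG array. With actin-based labelling none of the 9 was called and Hyou1 was (0.63, 0.0221), and without anti-IgM+CpG 1 only P4hb and Ssr2 kept the call while Ero1b was lower (-1.06, 0.0164). Without both media 3 and anti-IgM+CpG 1, 10 members were higher and 1 lower. With array medians aligned, 67.2% of all called genes were higher, against 42.3% as deposited.

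Other genes of the same pathways gave context for these changes, and the alternatives were read for the members only. Of 24 other tested genes of the ATF4 and eIF2 stress response, 11 rose and 4 fell with anti-IgM+CpG (17.2% and 24.8% of all tested genes). With PL2-3 8 rose and 2 fell (12.4% and 13.5%). With CpG 7 rose and 3 fell (13.1% and 16.9%), and with anti-IgM 6 rose and 1 fell (10.1% and 9.32%). Psat1, an enzyme of serine synthesis, rose by 1.86 with anti-IgM+CpG, 1.58 with PL2-3, 1.07 with CpG and 1.42 with anti-IgM. Mthfd2, a mitochondrial folate enzyme, rose by 1.81, 1.58, 1.33 and 1.16 in the same order, and the amino acid transporter gene Slc7a5 rose by 1.53, 1.08, 1.09 and 0.86. Eif2ak3, which encodes PERK, fell in all 4 comparisons (-1.62, -1.14, -1.23 and -0.77). Ddit4, a stress-induced inhibitor of mTORC1, fell with anti-IgM+CpG (-2.64) and with CpG (-2.35), and was not called with PL2-3 (-0.88) or anti-IgM (-0.52).

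Of 54 other tested ER genes, 20 rose and 6 fell with anti-IgM+CpG (17.2% and 24.8% of all tested genes). With PL2-3 16 rose and 7 fell (12.4% and 13.5%). With CpG 13 rose and 8 fell (13.1% and 16.9%), and with anti-IgM 12 rose and 3 fell (10.1% and 9.32%). Mogs, which trims glucose from new glycans, rose by 1.37, 1.17, 1.28 and 1.01. Sec13, a coat protein of vesicles that leave the ER, rose by 1.40, 0.92, 0.99 and 0.78, and Srprb, a subunit of the signal recognition particle receptor, by 1.34, 1.19, 1.04 and 0.89. Sec11c, a catalytic signal peptidase subunit, fell in all 4 (-1.40, -1.79, -1.79 and -1.42). Xbp1 fell by 0.95 with CpG and was not called with anti-IgM+CpG (-0.51), PL2-3 (-0.26) or anti-IgM (-0.06). Of the 8 plasma cell markers, 7 were tested, and Irf4, a transcription factor of activated B cells and plasma cells, rose in all 4 comparisons, by 1.56, 1.39, 1.26 and 1.90, while the ER protein gene Mzb1 fell in all 4.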

How the data were processed

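Total RNA from 15 samples (Qiagen RNeasy mini kit) was labelled with the Enzo kit (replicates 1 and 2) or the Ambion kit (replicate 3), per the labels. The deposited values are probe set signals, a linear intensity made with MAS5 per the submitters' processing notes, and the version is not given in the sources used here. Samples were grouped by title. Of 45037 probe sets, 34945 had 1 gene symbol, and 932 with several and 9160 with none were left out. For each gene the brightest probe set was used, and genes whose brightest probe set reached the array median on 3 or more arrays were tested (13160 genes). A constant of 75.2, the 20th percentile of gene probe set signals, was added before taking log2, which understates changes of dim genes. One limma model with group and kit over all 15 arrays (9 residual degrees of freedom, moderated with a trend) was tested two-sided with Benjamini-Hochberg adjustment over all genes in each of 9 comparisons. Computations used R 4.3.3, limma 3.58.1, Python 3.11.15 and matplotlib 3.10.9, and the fit was tested on simulated data. Precision is limited by the number of arrays.

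The members and lists were chosen with earlier results of these data known. In each comparison up to 4 called members of each role in each direction were named, with the largest changes first, which gave 67 of 82 calls. The other 15 calls were named after their values were seen, and Atf4 and Hspa5 were followed throughout. Creld2 and the other genes on arrays that stood apart, and those called only under an alternative, were singled out after their values were seen. Promoter windows came from RefSeq.

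Same-numbered arrays deviated together in 6 comparisons, with all 3 correlations over 0.1, and in none of the 3 with anti-IgM+CpG, where 0 of 3 were over 0.1. The same numbers also share a labelling kit. Alternatives were quantile normalization, an alignment of array medians, other pseudocounts, no filter, no labelling term, labelling read from beta-actin, the replicate number as a block, the Enzo arrays only, averaging all probe sets per gene, and leaving out each array. Leaving out media 3 with anti-IgM+CpG 1, and fitting each probe set alone, were added after seeing the data.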

Additional observations from a re-analysis of the deposited data

How the results depend on the processing

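Of 82 calls, all named in the text, 23 held under all 15 removals of 1 array and all 12 other alternatives, and none reversed. Under several alternatives no reversal was possible. Fitting each probe set alone was read for the brightest probe set only. With it, with no filter, with no labelling term and with the replicate block, the changes stayed as reported. Only the average over probe sets brought in the other probe sets of a gene. Over the removals 1041 of 1230 repeats kept the call and 189 lost it, and over the other alternatives 814 of 984 kept it and 170 lost it. Counts of called members moved by over 1.5 times as follows, and the cause was not tested. For anti-IgM against media the count of 13 became 7 with no labelling term and 7 to 17 when leaving out single arrays. For CpG against anti-IgM the 4 became 1 with array medians aligned, 8 without media 3 and anti-IgM+CpG 1, and 2 to 5 over the removals. For PL2-3 against CpG the 2 became 4 with quantile normalization, actin-based labelling or averaged probe sets, 1 with no filter or with each probe set on its own, 0 with no labelling term or array medians aligned, 7 without the 2 arrays that stood apart, and 0 to 3 over the removals. For anti-IgM+CpG against anti-IgM the 6 became 2 with quantile normalization or no filter, 1 with no labelling term or actin-based labelling, and 2 to 10 over the removals. For anti-IgM+CpG against CpG the 9 became 3 with quantile normalization, 0 with no labelling term, 1 with actin-based labelling, 15 with the Enzo arrays only, and 1 to 18 over the removals. For PL2-3 against anti-IgM it stayed at 0 in every setting. With the replicate number as a block, 79 of the 82 calls held, and the counts were 13 for PL2-3 against media and 4 for anti-IgM+CpG against anti-IgM, where the calls of Pdia3 (0.0509) in the first and of Sesn2 (0.052) and Atf6 (0.0508) in the second ended, and it changed no other count. Brightness of a probe set decides several genes: 63 of 82 calls have more than 1 probe set, and in 16 of these a probe set of the gene had the opposite sign.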
